A study of Mus musculus with 2 samples.

Results

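Heat shock proteins and chaperones were read from ribosome-bound RNA of the medial prefrontal cortex of adult mice. The members were the probe sets that name a single gene whose symbol belongs to the heat shock protein families (Hspa, Hspb, Hspd, Hspe, Hsph, Hsp90), the DnaJ families (Dnaja, Dnajb, Dnajc), the cytosolic chaperonin CCT (Cct2 to Cct8), the BAG co-chaperones (Bag1 to Bag6) or the heat shock factors (Hsf1 to Hsf5). This gave 94 probe sets of the 34472 on the arrays, and 84 genes of the 22180 named genes. The symbol pattern also took in Hspbp1 and Hspbap1, which encode proteins that bind heat shock proteins. The mice, labelled D2Cre::RiboTag, carried a Cre driver for Drd2, the dopamine D2 receptor gene, and the RiboTag allele, which adds a haemagglutinin tag to the ribosomal protein Rpl22 in cells that made Cre. Tagged ribosomes were precipitated with an antibody to the tag, and the labels call both samples technical replicates, made from 5 pooled adult cortices, of cells named Drd2+ neurons. They form 1 group with no treatment, so no heat, stress or control condition was compared. The labels do not say outright that both samples come from the same pool, and no biological replicate is labelled, so no p-value is given.

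Chaperones bind unfolded proteins and help them fold, move or be broken down. HSP70 proteins do this in cycles of ATP use. DnaJ proteins bring them their clients and start the ATP step, and HSP110 and several BAG proteins release the nucleotide afterwards. HSP90 acts later on kinases and receptors, small heat shock proteins hold aggregating proteins, and the chaperonins fold proteins inside a closed chamber. Some members are made at all times. Others are induced by heat shock factor when proteins unfold in the cytosol, or by the unfolded protein response when they do so in the endoplasmic reticulum (ER). Inducible and constitutive members are described apart.

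Inducible genes are known to carry regulatory elements in their promoters, so these sequences are shown before the signals. RefSeq promoter sequences of the assembly GRCm38.p6, each 250 bases before to 50 bases after a transcription start, were matched by symbol for 70 of the 84 genes, with 88 promoters. The heat shock element was searched on both strands as GAANNTTC or TTCNNGAA, and its long form as either of these followed, after 2 free bases, by the first triplet again, which contains the short form. Of the 9 heat inducible members with a promoter, 7 held the short form (Bag3, Dnajb4, Hspa1a, Hspa1b, Hspb1, Hspb8 and Hsph1), in Bag3 and Hspb8 only after the transcription start. The same letters stood in 17.0% of the 27025 genes with a promoter, in 5 of 18 constitutive members, in 0 of 5 ER stress inducible members, in 2 of 3 members known from muscle or lens (Hspb3 and Hspb6) and in 27.1% of the members with a promoter. The long form was held by Hsph1, Dnajb6, Hspd1 and Hspe1 among the members and by 0.662% of all genes. The element of the ER stress response was searched on both strands as CCAAT, 9 free bases and CCACG. It stood in 3 of the 5 ER stress inducible members, Hspa5, Hsp90b1 and Dnajc3, in 0 of the 9 heat inducible and 0 of the 18 constitutive members, and in 0.137% of all genes. A match describes these letters and does not show that a factor binds there. The Hspa1a and Hspa1b promoters are nearly the same, and Hspd1 and Hspe1 share a stretch, so the counts are not of independent promoters.

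Promoters of 4 heat inducible genes are printed from 150 bases upstream to the base before the start, with short heat shock elements in capitals. They are chosen because Hspa1a and Hspa1b encode the inducible HSP70 itself, Hspb1 was the heat inducible member whose signal did not pass background, and Hsph1 encodes the inducible HSP110. Hspa1a lies at chr17:34972157-34972306 on the minus strand, Hspa1b at chr17:34959239-34959388 on the minus strand, Hspb1 at chr5:135887769-135887918 on the plus strand and Hsph1 at chr5:149636337-149636486 on the minus strand.
Hspa1a: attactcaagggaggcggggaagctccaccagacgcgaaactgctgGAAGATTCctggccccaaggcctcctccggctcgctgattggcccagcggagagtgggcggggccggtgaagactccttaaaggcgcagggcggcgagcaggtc
Hspa1b: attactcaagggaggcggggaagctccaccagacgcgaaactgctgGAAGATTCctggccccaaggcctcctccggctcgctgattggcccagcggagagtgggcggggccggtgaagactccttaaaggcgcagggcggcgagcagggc
Hspb1: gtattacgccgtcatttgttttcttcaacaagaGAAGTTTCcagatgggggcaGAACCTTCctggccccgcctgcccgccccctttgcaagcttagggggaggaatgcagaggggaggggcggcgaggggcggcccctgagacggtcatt
Hsph1: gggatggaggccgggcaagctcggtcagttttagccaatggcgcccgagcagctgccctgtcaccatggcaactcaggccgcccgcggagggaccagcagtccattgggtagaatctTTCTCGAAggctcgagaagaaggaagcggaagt
The Hspa1a and Hspa1b promoters have the same base at 296 of 300 positions, which shows how alike these duplicated genes are. Hspb1 holds a pair of elements within this stretch. The long form in Hsph1 starts after the transcription start and is not printed.

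The mitochondrial chaperonin genes Hspd1 and Hspe1 lie on opposite strands and share a stretch that holds overlapping long heat shock elements. It is printed on the Hspe1 strand, at chr1:55088053-55088082, because this pair, listed here as constitutive although heat is known to raise it, carries the long form. That form was in 2 of 18 constitutive and 1 of 9 heat inducible members with a promoter, against 0.662% of all genes.
Hspe1 and Hspd1: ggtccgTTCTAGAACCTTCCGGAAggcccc

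Promoters of the 3 ER stress inducible genes with the ER element are printed with that element in capitals. Hspa5 lies at chr2:34771940-34772089 on the plus strand and Dnajc3 at chr14:118937782-118937931 on the plus strand, both with 150 bases. Hsp90b1 lies at chr10:86705445-86705674 on the minus strand with 230 bases, since it holds the element once in each orientation.
Hspa5: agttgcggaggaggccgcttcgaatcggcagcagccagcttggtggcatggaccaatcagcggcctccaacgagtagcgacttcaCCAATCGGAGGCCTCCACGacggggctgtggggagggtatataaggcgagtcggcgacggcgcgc
Hsp90b1: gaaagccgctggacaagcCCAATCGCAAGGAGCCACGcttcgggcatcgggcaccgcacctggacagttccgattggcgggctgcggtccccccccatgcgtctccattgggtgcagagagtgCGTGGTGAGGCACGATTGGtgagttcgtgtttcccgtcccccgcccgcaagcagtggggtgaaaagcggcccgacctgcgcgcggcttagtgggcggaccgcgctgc
Dnajc3: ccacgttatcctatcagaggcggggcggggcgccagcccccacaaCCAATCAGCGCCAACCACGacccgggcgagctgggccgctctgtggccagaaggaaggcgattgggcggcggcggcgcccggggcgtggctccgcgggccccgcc

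Values are log2 signals as the authors deposited them, a scale inferred from their range, and the probe sets of a gene were averaged. Without a control sample, background was set within each array from 1373 sensory receptor genes (olfactory or vomeronasal), at their 95th percentile, which was 5.61 on the first array, replicate 1, and 5.64 on the second. A gene was called above background where it exceeded this threshold on both arrays. A stricter line, called the out-of-tissue threshold, was the 95th percentile of 31 testis, liver and skeletal muscle genes, at 7.28 and 7.10. Of these, 2 of 9 testis, 3 of 12 liver and 6 of 10 skeletal muscle genes were themselves above background. A call above background therefore does not by itself show that a gene is expressed in these cells. A value below background does not show that it is absent either. Both arrays had nearly the same median over all probe sets, 5.80 and 5.81. Drd2 gave 10.78 on replicate 1 and 10.70 on replicate 2, above both thresholds. Rpl22, the tagged gene, gave 6.71 and 6.75, above background and below the out-of-tissue threshold on each array. Markers of neurons were above background in 10 of 10 genes, of astrocytes in 8 of 8, of oligodendrocytes in 6 of 6, of microglia in 8 of 8 and of endothelial and mural cells in 7 of 8, with Ly6c1 as the exception. The out-of-tissue threshold was passed by 10, 6, 4, 3 and 1 of these. Chaperones are made in all these cell types, no unprecipitated RNA was analysed here, and the part of other cells in the signals was not tested. Probe sets bind with different strength, so single genes are set against the thresholds and their levels are not compared with each other.

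Of the 84 member genes, 76 (90.5%) were above background, against 60.5% of the 22180 named genes and 64.3% of those that are not sensory receptors. The median signal was 8.90 over the members and 6.36 over all named genes. No member passed on only 1 array: the other 8 were below the threshold on both. The out-of-tissue threshold was passed by 61 members and by 38.0% of all named genes, and a line at the 99th percentile of those receptor genes, at 6.64 and 6.66, by 66 members and 44.8% of all named genes. The 8 members not above background were the small heat shock protein gene Hspb1, the heat shock factors Hsf3 and Hsf5, the chaperonin subunit gene Cct6b and the DnaJ genes Dnajb3, Dnajb7, Dnajb13 and Dnajc22. Of the 94 probe sets, 82 were above background, and the share over all probe sets was not computed.

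**Figure D1:**
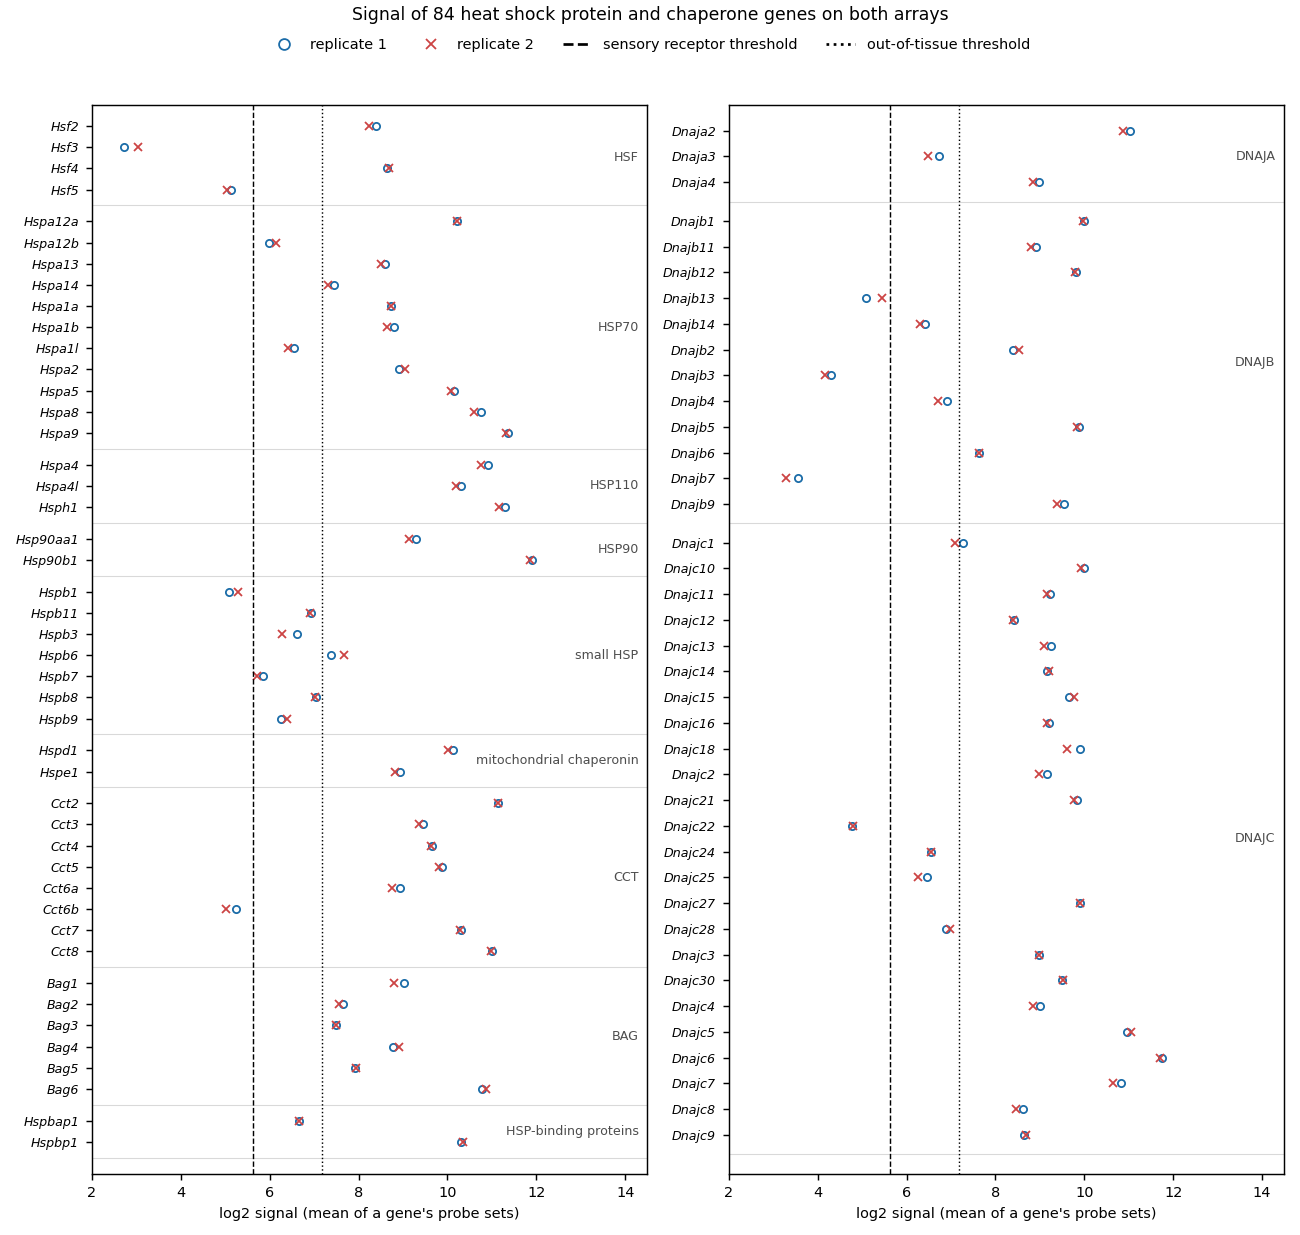
Log2 signal (x axis, mean of a gene's probe sets) of each of the 84 member genes (rows, grouped by role), with circles for replicate 1 and crosses for replicate 2. The dashed line is the sensory receptor threshold and the dotted line the out-of-tissue threshold, each at the mean of the arrays. The 8 genes to the left of the dashed line on both arrays are Hsf3, Hsf5, Hspb1, Cct6b, Dnajb3, Dnajb7, Dnajb13 and Dnajc22.

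Heat shock factors are the transcription factors that bind the heat shock element, and 2 of the 4 measured were above background. Hsf2 gave 8.40 on replicate 1 and 8.23 on replicate 2. Hsf4, known for its role in the lens, gave 8.63 and 8.69. Both stood above the out-of-tissue threshold on each array. Hsf5, a testis gene, gave 5.13 and 5.05, and Hsf3 gave 2.73 and 3.03. Hsf1, the main stress-activated factor, has no probe set of its own here and was not analysed.

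Heat inducible members mostly gave signal. Of the 10 measured, 9 (90.0%) were above background and 7 above the out-of-tissue threshold, with a median of 8.73. Among all named genes the shares were 60.5% and 38.0%. Hspa1a stood at 8.74 on both arrays, and Hspa1b at 8.80 on replicate 1 and 8.65 on replicate 2. Both encode inducible HSP70, and their transcripts are near-identical, so the signal of a probe set may come from either gene. A further probe set, annotated to both, gave 5.32 and 5.46 and was not above background. Thus the probe sets of this gene pair lay on different sides of the threshold. Hsph1, the inducible HSP110, gave 11.30 and 11.15, and Hspa4l, its relative, 10.30 and 10.19. Hsp90aa1, the inducible cytosolic HSP90, gave 9.30 and 9.13. All of these lay above both thresholds on each array.

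The DnaJ partner of inducible HSP70, Dnajb1, averaged 9.98 ± 0.03 (SD, n = 2 technical arrays). Dnajb4, a close relative, gave 6.91 and 6.71, above background and below the out-of-tissue threshold. Bag3, which links HSP70 to small heat shock proteins for autophagy of damaged proteins, gave 7.49 and 7.5 and passed both thresholds. Its small heat shock protein partner Hspb8 gave 7.04 and 7.03, just under the out-of-tissue threshold on each array. The exception in the list was Hspb1, which encodes HSP27. It averaged 5.08 and 5.29, from a probe set at 4.98 and 5.00 and another at 5.18 and 5.57. Neither Hspb1 probe set exceeded the threshold on any array. Dnaja1, the remaining gene of the list, was read only by a probe set that also names the microRNA gene Mir207, at 8.50 and 8.39.

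ER stress inducible members lay above both thresholds in 5 of 5 cases, with a median of 9.46. The out-of-tissue threshold was passed by 38.0% of all named genes. Hspa5 encodes BiP, the HSP70 of the ER, and gave 10.15 on replicate 1 and 10.08 on replicate 2. Hsp90b1, the HSP90 of the ER, gave 11.91 and 11.86. In both genes the arrays lay much closer to each other than to either threshold. The other genes of the list encode DnaJ proteins that serve BiP. Dnajc3 gave 8.98 on both arrays. Dnajb9 gave 9.55 and 9.38, and Dnajb11 8.91 and 8.80. Dnajc3, Hspa5 and Hsp90b1 are the members with the printed ER element, whereas these letters are not in the searched windows of Dnajb9 and Dnajb11.

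Among ER members outside that list, Hspa13, an HSP70 relative of the ER, gave 8.60 and 8.51. Dnajc10, an ER reductase with a J domain, averaged 9.96 ± 0.06 (SD, n = 2 technical arrays). Dnajc1, an ER membrane DnaJ, gave 7.28 and 7.10. Dnajc1 thus stood above background and within 0.01 of the out-of-tissue threshold on each array, over it on replicate 1 and under it on replicate 2. The ER membrane DnaJ genes Dnajb12 and Dnajb14 gave 9.82 and 9.80, and 6.43 and 6.30. The Dnajb14 mean joined probe sets at 9.11 on both arrays and at 3.74 and 3.48, which lie on different sides of the threshold.

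Constitutive cytosolic and mitochondrial members were above background in 23 of 23 measured genes, and 22 passed the out-of-tissue threshold. Their median was 9.64. The shares over all named genes were 60.5% and 38.0%. Hspa8, the constitutive HSP70 that also uncoats clathrin vesicles, averaged 10.76 on replicate 1 and 10.61 on replicate 2 over 4 probe sets. Those probe sets ranged from 8.90 and 8.75 up to 13.10 and 13.07, so the Hspa8 value depends on which of them is read. Hspa8 has many processed pseudogenes, to which its probe sets can also bind. Hspa9, the mitochondrial HSP70, gave 11.36 and 11.31. Hspa4, a constitutive HSP110, gave 10.91 and 10.75. Hsp90ab1, the constitutive cytosolic HSP90, has no probe set of its own here and was not analysed.

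The chaperonins gave signal in all subunits that are not testis genes. Hspd1 and Hspe1, which form the HSP60 and HSP10 chamber of mitochondria, gave 10.12 and 10.01, and 8.94 and 8.83. Each of the pair was lower by 0.11 on replicate 2. The cytosolic chaperonin CCT folds actin and tubulin. Cct2 stood at 11.14 on both arrays, Cct8 at 11.01 and 10.98, and Cct7 at 10.30 and 10.29. Cct3 gave 9.45 and 9.35, Cct4 9.66 and 9.62, and Cct5 9.87 and 9.81. The 7 CCT genes above background passed the out-of-tissue threshold as well. Cct6a averaged probe sets at 10.75 and 10.54 and at 7.11 and 6.97. Its testis paralog Cct6b gave 5.25 and 5.03 and was not above background, so the pair lay on different sides of the threshold. Tcp1, the first CCT subunit, whose symbol the rule does not take in, averaged 6.87 and 6.67 over 2 probe sets.

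Ribosomes themselves carry chaperones, which fold proteins as they are made. Hspa14 and Dnajc2 form the HSP70 and DnaJ pair that sits on cytosolic ribosomes. Hspa14 gave 7.45 and 7.31, and Dnajc2 9.17 and 8.97. Dnajc21, which takes part in ribosome assembly, gave 9.83 and 9.76. All of these exceeded both thresholds on each array.

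DnaJ genes of the constitutive list serve several compartments. Dnaja2, a cytosolic partner of HSP70, gave 11.02 on replicate 1 and 10.87 on replicate 2. Dnajc7 gave 10.82 and 10.65, and Dnajc11, a protein of mitochondrial membranes, 9.23 and 9.15. Dnajc8, found in the spliceosome, gave 8.61 and 8.47, and Dnajc9, a histone chaperone, 8.65 and 8.69. Each of them exceeded both thresholds. Dnaja3, a mitochondrial DnaJ, was the constitutive member below the out-of-tissue threshold. Its mean of 6.73 and 6.49 joined probe sets at 9.19 and 9.04, at 5.95 and 5.92, and at 5.04 and 4.50. The highest of these passed both thresholds and the lowest passed neither.

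**Figure D2:**
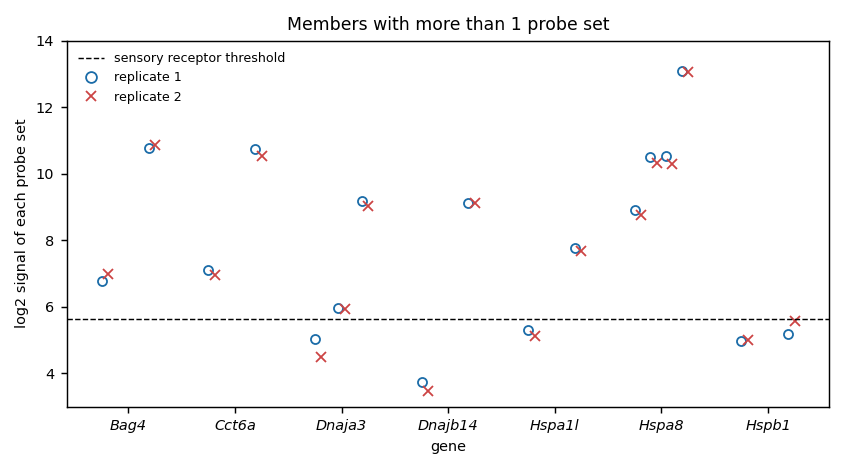
Log2 signal (y axis) of each probe set of the 7 member genes with more than 1 probe set (x axis), with circles for replicate 1, crosses for replicate 2 and the sensory receptor threshold dashed at the mean of the arrays. In Dnaja3, Dnajb14 and Hspa1l the probe sets lie on different sides of the line. The arrays differ most in the lowest Dnaja3 probe set, at 5.04 and 4.50.

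Synaptic and neuronal members were above both thresholds in 8 of 8 cases, with a median of 9.52. For all named genes the share over the out-of-tissue threshold was 38.0%. Dnajc5 encodes cysteine string protein, the chaperone of synaptic vesicles, and gave 10.97 on replicate 1 and 11.04 on replicate 2. Dnajc6 encodes auxilin, which brings Hspa8 to clathrin coats, and gave 11.74 and 11.71. Dnajc13, which acts on endosomes, gave 9.25 and 9.10. In each of these genes the arrays lay far closer to each other than to a threshold. Dnajc14, known as a dopamine receptor-interacting protein of the ER, gave 9.16 and 9.20. A probe set that names it together with Ormdl2 gave 6.57 and 6.31, between the thresholds. Dnajb2 and Dnajb6 hold back aggregation of neuronal proteins and gave 8.40 and 8.53, and 7.63 and 7.62. A further probe set, which names Dnajb6 together with Gm5129, gave 5.46 and 5.54 and was not above background. Dnajb5 gave 9.89 and 9.83. Hspa12a, a distant HSP70 relative, gave 10.22 on both arrays. Dnajc12, a partner of the hydroxylases that start the synthesis of dopamine and serotonin, stands in none of the lists and gave 8.41 and 8.39.

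Of 7 measured members known from testis, 3 (42.9%) were above background, with a median of 5.26, and 1 passed the out-of-tissue threshold. That one was Hspa2, an HSP70 of spermatocytes that other tissues also make, at 8.92 on replicate 1 and 9.05 on replicate 2. Hspb9 gave 6.26 and 6.40. Hspa1l, the testis neighbour of Hspa1a and Hspa1b, averaged 6.55 and 6.41 over probe sets at 7.78 and 7.69 and at 5.31 and 5.13. The Hspa1l call therefore rests on 1 of its 2 probe sets. Dnajb13, of cilia and sperm tails, gave 5.08 and 5.44, and Dnajb3 4.31 and 4.17. The testis relatives of Dnajc5, Dnajc5b and Dnajc5g, fall outside the symbol rule, and gave 4.74 and 4.99, and 3.83 and 3.93.

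Small heat shock proteins keep aggregating proteins soluble, and several are known from muscle or lens. Of the members listed as known from muscle or lens, 4 of 4 were above background, against 60.5% of all named genes. Hspb6 and Hsf4 were also above the out-of-tissue threshold. Of 7 small heat shock protein genes 6 were above background and 1 passed the out-of-tissue threshold, with a median of 6.45. The one that passed was Hspb6, at 7.37 on replicate 1 and 7.68 on replicate 2. Hspb3 gave 6.62 and 6.27, and Hspb11, a protein of intraflagellar transport, 6.92 and 6.91. Hspb7, at 5.86 and 5.71, was the only member within 0.25 of the threshold, where 9.26% of all named genes lay. Cryab, the lens crystallin of the same family, gave 8.11 and 7.995 over 2 probe sets of its own, and a probe set that it shares with Hspb2 gave 5.55 and 6.11.

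The BAG co-chaperones gave signal throughout. All 6 BAG genes passed both thresholds, and their median was 8.40. Of all named genes, 38.0% passed the out-of-tissue threshold. Bag6, which guards tail-anchored membrane proteins, gave 10.78 on replicate 1 and 10.87 on replicate 2. Bag1 gave 9.02 and 8.80, Bag5 7.93 and 7.95, and Bag2, which restrains the ubiquitin ligase of HSP70 clients, 7.66 and 7.55. The BAG genes thus lay on the same side of each line on both arrays. Bag4 averaged 8.78 and 8.92 over probe sets at 10.78 and 10.86 and at 6.78 and 6.98. Hspbp1, a nucleotide exchange factor of HSP70, gave 10.31 and 10.36. Hspbap1, a protein that binds Hspb1, gave 6.67 and 6.66 and did not pass the out-of-tissue threshold.

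The remaining members were described by their side of the thresholds. Dnaja4, Dnajc4, Dnajc15, Dnajc16, Dnajc18, Dnajc27 and Dnajc30 exceeded both on each array. Dnajc24, which takes part in making diphthamide on an elongation factor, gave 6.54 and 6.55, Dnajc25 6.46 and 6.26, and Dnajc28 6.89 and 6.97. These 3 lay between the thresholds, as did Hspa12b, known from endothelial cells, at 5.99 and 6.14. Dnajc22 gave 4.78 and 4.79 and Dnajb7 3.55 and 3.28, below both.

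**Figure D3:**
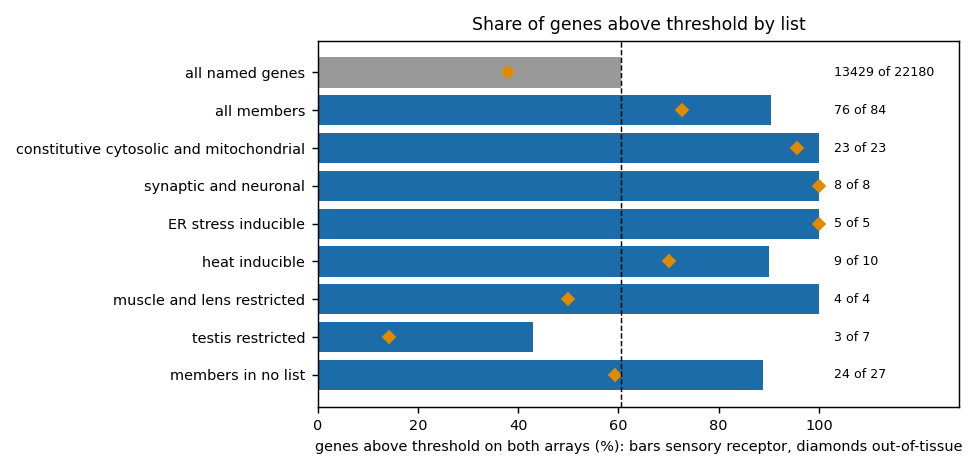
Share of genes (x axis, percent) above the sensory receptor threshold on both arrays (bars) and above the out-of-tissue threshold (diamonds) for all named genes and the lists of members (rows), with counts at the right and the share of all named genes dashed. The constitutive, synaptic, ER stress inducible, and muscle and lens lists reach 100% by the bars, the last with 4 genes. The heat inducible list reaches 90.0%, the members in no list 88.9% and the testis list 42.9%, against 60.5% of all named genes.

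Genes that work with the members but fall outside the symbol rule were above background in most cases. Of 23 co-chaperones and partners, 22 were (95.7%, against 60.5% of all named genes), with a median of 9.10. Stip1, which joins HSP70 to HSP90, gave 11.12 and 11.07. The HSP90 activators Ahsa1 and Ahsa2 gave 10.25 and 10.18, and 8.26 and 8.15, and the kinase co-chaperone Cdc37 10.23 and 10.17. The exception was Ptges3, a co-chaperone that binds closed HSP90, at 5.08 and 4.77 from 1 probe set. Fkbp5, an HSP90 co-chaperone of steroid receptors, gave 7.30 and 7.06 and passed the out-of-tissue threshold on replicate 1 only.

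Of 19 ER folding and unfolded protein response genes, 18 passed the background threshold (94.7%), against 60.5% of all named genes. The list's median was 9.44. The transcription factor Xbp1 gave 10.07 and 9.99, Atf4 9.41 and 9.49, and Atf6 10.35 and 10.31. Ern1, the sensor kinase upstream of Xbp1, gave 7.70 and 7.53. Edem1, which directs misfolded glycoproteins to breakdown, averaged 5.65 and 5.63 over 2 probe sets and passed the threshold on replicate 1 only. With the highest probe set of each gene, 19 of the 19 were above background. All 10 genes of proteolysis and aggregate clearance passed both thresholds, where 38.0% of all named genes passed the out-of-tissue one. Their median was 9.31, and by the lowest probe set of each gene 9 of the 10 were above background. Among them Vcp, the ATPase that extracts ubiquitinated proteins, gave 9.31 and 9.22, the autophagy receptor Sqstm1 11.55 and 11.51, and the disaggregase Clpb and protease subunit Clpp 8.31 and 8.13, and 9.59 and 9.46.

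The arrays repeated the members closely. Over the 76 members above background, the difference of replicate 2 minus replicate 1 had an SD of 0.114, against 0.149 over all named genes above background. The gap was smaller among genes of like signal. With a mean under 8 the SD was 0.15 over members and 0.17 over all genes. It was 0.11 and 0.12 with a mean of 8 to 10, and 0.08 and 0.10 at 10 or more. The median SD of a member over the 2 arrays was 0.078. Differences leaned one way: 53 of the 76 members (69.7%) were lower on replicate 2, 18 were higher and 5 were equal, while 53.7% of all named genes above background were lower on replicate 2. The median difference was small, at -0.06 over the members and -0.02 over all of these genes. Both shares differed by signal level. Among genes above background with a mean under 8, 14 of 21 members (66.7%) and 49.0% of all genes were lower on replicate 2. With a mean of 8 to 10, 26 of 37 members (70.3%) and 58.8% of all genes were, and at 10 or more 13 of 18 members (72.2%) and 58.4%. After quantile normalization 49 of the 76 members were lower, against 51.3% of all genes.

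By list, constitutive members were lower on replicate 2 in 19 of 23 cases, with a median difference of -0.11, and heat inducible members in 7 of 9, also at -0.11. Synaptic and neuronal members were lower in 4 of 8 cases, with a median of -0.01, and BAG genes in 2 of 6. ER stress inducible members were lower in 4 of 5 cases, muscle and lens members in 2 of 4 and testis members in 1 of 3. Of the lists outside the rule, co-chaperones were lower in 18 of 22 cases, ER folding genes in 12 of 18 and proteolysis genes in 9 of 10. The cell type markers went both ways. Astrocyte markers were lower in 6 of 8 cases and endothelial and mural markers in 4 of 7. Neuron markers were lower in 4 of 10, oligodendrocyte markers in 2 of 6 and microglia markers in 1 of 8. The samples are labelled technical replicates, whether they share a pool is not stated, and the cause of these differences was not tested. The 5 members with the largest absolute difference were Dnajb13 (0.36 higher on replicate 2), Hspb3 (fell by 0.35), Dnajc18 (fell by 0.31, from 9.91 to 9.60), Hspb6 (0.31 higher) and Hsf3 (0.30 higher), of which Dnajb13 and Hsf3 were not above background.

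**Figure D4:**
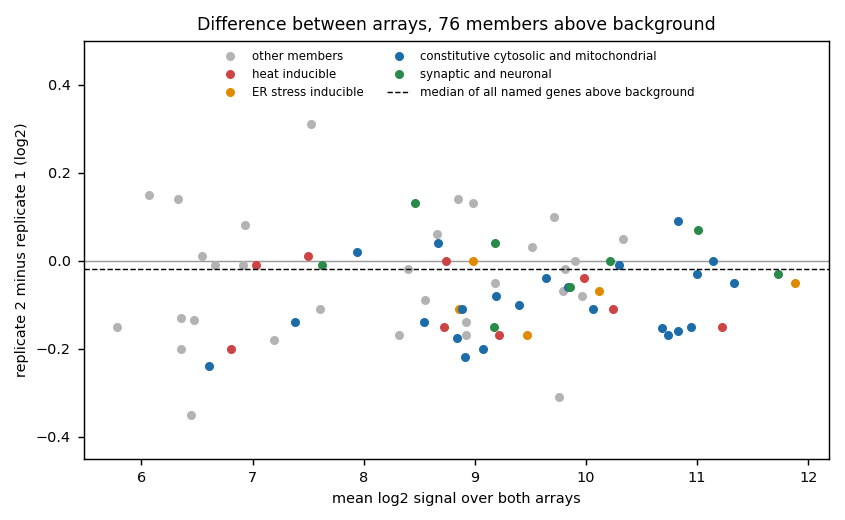
Difference of replicate 2 minus replicate 1 (y axis, log2) against the mean log2 signal (x axis) for the 76 member genes above background, coloured by list, with the median difference of all named genes above background dashed at -0.02. Most points lie below 0, 53 of 76, and the differences span -0.35 to 0.31.

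Probe sets that name a member together with another gene were left out of the counts. There were 15, of which 10 were above background, and the share over all probe sets that name several genes was not computed. The set shared by Snord14e and Hspa8 gave 7.64 on replicate 1 and 7.65 on replicate 2. Sets that name Dnajc19 with its pseudogene gave 9.29 and 9.57, and, with Fxr1 added, 6.02 and 5.85. The set of Dnajc17 and Zfyve19 gave 7.12 and 6.85. That of Dnajc7 and Nkiras2 gave 7.02 and 6.96, between the thresholds. Both sets of Dnajb8, a testis gene, were not above background, at 5.52 and 5.49 and at 5.16 and 5.25.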

How the data were processed

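Ribosome-bound RNA of 1 group was measured on 2 arrays, labelled technical replicates, each made from 5 pooled mice; per the labels' protocols it was extracted with Trizol and a column and labelled with the Affymetrix WT Plus kit. The authors deposited 1 log2 value per probe set and array. The log base is inferred from the values, and for the summarisation, background correction and normalization the method is not given in the sources used here. Of 34472 probe sets, 23521 name 1 gene, 1814 several and 9137 are unnamed here. RefSeq (GRCm38.p6) changed 0 symbols. Probe sets of a gene were averaged (Python 3.11.15, pandas 2.3.3, numpy 2.4.6), and a gene was called above background over the 95th percentile of sensory receptor genes on both arrays. No test was possible with 1 group, and the number of arrays limits the precision. Values are given per array. Members and lists were chosen with earlier results of these data known, and the ER stress element was added after the signals were seen. Members named with values were all members of the 6 member lists, those whose call differed from most of their class, those within 0.25 of it, those whose probe sets disagree and the 5 with the largest difference between arrays. For lists outside the rule these were the first 4 measured and the exceptions; other genes were named after their values were seen. Alternatives were quantile normalization, each array alone, genes with 1 probe set, a gene's highest or, added after the data were seen, lowest probe set, and as thresholds the overall probe set median, the 99th percentile and the out-of-tissue genes. Calling and motif search were tested on simulated data.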

Additional observations from a re-analysis of the deposited data

How the results depend on the processing

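Taking the lowest probe set of a gene, an alternative added after the data were seen, ended the calls of Dnaja3, Dnajb14 and Hspa1l. It left 73 members above background. Outside the rule it left 21 of 23 co-chaperones, 18 of 19 ER folding genes and 9 of 10 proteolysis genes. Quantile normalization changed 0 member calls. So did the highest probe set, only genes with 1 probe set and each array alone, but few or no members could change call under these. Among the thresholds, the 99th percentile of the receptor genes lost 10 members, the out-of-tissue threshold 15 and the median of all probe sets 1, Hspb7. Testis members above background numbered 1 and muscle and lens members 2, under both the 99th percentile and the out-of-tissue threshold, against 3 and 4. The median signal of the members was 8.98 with the highest probe set, against 8.90, and ranged from 8.84 to 8.94 over the arrays alone. Counts stayed within 1.5 times of the main ones for all members, the heat inducible, ER stress inducible, constitutive and synaptic lists and the 3 lists outside the rule. Of the 6 small heat shock protein genes above background, 3 passed the 99th percentile and 1 the out-of-tissue threshold. The alternatives for the lists outside the rule and the count of members lower on replicate 2 were added after the data were seen. No paired analysis was possible because there is 1 group. The out-of-tissue threshold rests on 31 genes, and signal near background limits the small heat shock protein calls.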
